A study of Mus musculus with 16 samples.

Results

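The forkhead family comprises the transcription factors named Fox, which share a winged-helix DNA-binding domain, the forkhead box. Members were taken as every protein-coding gene of the mouse RefSeq annotation (assembly GRCm38.p6, the assembly known as mm10) whose symbol is Fox, a letter from a to s, and a number. A gene was kept if the midpoint of a deposited window lay within 650 bp of its transcription start site (TSS). This gave 44 genes with 44 windows, out of 19617 protein-coding genes with a window and 38053 distinct windows. The windows are 5000 bp long, and their midpoints lie mostly 150 bp upstream of the TSS. Of the 127646 accessible regions in the second deposited table, 83 lay wholly within these 44 windows.

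Forkhead factors bind DNA through a core of the type TGTTTAC, and several of them, the FoxA proteins above all, can bind their sites on nucleosomes and so act as pioneer factors. FOXD3 is a forkhead protein of the epiblast, of embryonic stem cells and of the neural crest. FOXH1 carries Smad proteins to Nodal target genes, the FoxO proteins are kept out of the nucleus by the kinase Akt, and FOXM1 drives genes of G2 and mitosis, while most of the other members are known from later tissues.

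The study measured chromatin accessibility by ATAC-seq (adaptor insertion into open DNA by a transposase) in mouse embryonic stem cells (mESCs). All cells had the genotype FOXD3-iKO, were grown in L2i medium, and were treated for 24 h with tamoxifen (4HT), which induces the loss of FOXD3, or with ethanol (EtOH) as the control. They were stained with DAPI and sorted by DNA content into the fractions G1, ES, LS and G2, which gives 8 groups of 2 libraries each, 16 libraries in all. Every group is represented by 1 column that pools its libraries, so no value below has an SD over replicates, and from the labels it is not known what part of Foxd3 is removed, whether the line is 1 clone, or whether the 2 libraries came from separate cultures.

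Each value is a coverage signal scaled to library size, with the average taken over covered bases only. The smallest signal of a column was read as the worth of 1 read, and a level is the signal divided by it, so that 1 is the lowest level a window with any read can have. At a level of 1 no covered base had a second read, but the window can hold more than 1 read. Runs of 4 values follow the order G1, ES, LS, G2. The depth implied by the 1-read value was 6.78 to 11.2 M reads per column, with the lowest depth in 4HT G1. Because a level cannot go below 1 and is averaged over covered bases only, levels of weak windows move with depth and differences between them are understated. In a sorted bulk population, a smaller share of cells with an open site and a smaller opening per cell cannot be told apart. The 14 naive embryonic stem cell markers had a median window level of 1.72, from 1.24 for Nr5a2 to 2.73 for Klf2. Pou5f1 stood at 2.65 and Nanog at 1.43. The median was 1.22 over the 9 primitive endoderm markers with a window (1.11 to 1.75). It was 1.28 over the 9 such fibroblast markers (1.11 to 1.65), so the levels of the lists overlapped.

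To show what the compared promoters look like, 6 of the 25 members with a RefSeq promoter at the window's TSS are printed here: the targeted gene Foxd3, the CpG-rich promoters of Foxo3 and Foxj3, whose windows were among the 5 with the highest levels, and the CpG-poor promoters of Foxp3, Foxi1 and Foxr2. They were chosen after their values were seen. For Foxr2 the TSS used (153118788) lies inside the gene span, which starts at 153114581, so its printed stretch is also inside the gene. Each line gives the 250 bases before the TSS, 5′ to 3′ on the strand of the gene, from RefSeq (GRCm38.p6), with every CpG dinucleotide in capitals. The positions are chr4:99656049-99656298 (plus strand) for Foxd3, chr10:42276696-42276945 (minus) for Foxo3, chr4:119539411-119539660 (plus) for Foxj3, chrX:7579426-7579675 (plus) for Foxp3, chr11:34208090-34208339 (minus) for Foxi1 and chrX:153118538-153118787 (plus) for Foxr2.
Foxd3: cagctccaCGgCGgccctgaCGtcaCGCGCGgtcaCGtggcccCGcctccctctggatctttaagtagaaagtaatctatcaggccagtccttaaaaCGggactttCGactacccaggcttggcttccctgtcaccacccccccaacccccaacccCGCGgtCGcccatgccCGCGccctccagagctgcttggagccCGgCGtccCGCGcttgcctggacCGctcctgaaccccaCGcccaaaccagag
Foxo3: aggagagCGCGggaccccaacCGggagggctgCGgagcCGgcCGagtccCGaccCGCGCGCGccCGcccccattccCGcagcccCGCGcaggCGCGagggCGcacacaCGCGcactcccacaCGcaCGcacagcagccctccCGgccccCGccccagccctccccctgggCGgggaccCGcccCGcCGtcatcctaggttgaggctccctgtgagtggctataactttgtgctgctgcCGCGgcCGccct
Foxj3: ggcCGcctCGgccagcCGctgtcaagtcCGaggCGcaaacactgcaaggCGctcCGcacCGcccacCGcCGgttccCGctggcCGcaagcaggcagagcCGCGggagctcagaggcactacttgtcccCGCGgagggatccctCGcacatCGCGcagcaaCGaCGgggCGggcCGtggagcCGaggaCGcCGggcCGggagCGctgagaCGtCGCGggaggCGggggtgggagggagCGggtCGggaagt
Foxp3: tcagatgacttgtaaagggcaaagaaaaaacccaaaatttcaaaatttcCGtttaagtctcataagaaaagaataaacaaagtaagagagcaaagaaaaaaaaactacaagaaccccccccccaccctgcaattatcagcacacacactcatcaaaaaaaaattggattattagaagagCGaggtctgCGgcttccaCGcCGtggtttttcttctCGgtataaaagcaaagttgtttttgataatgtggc
Foxi1: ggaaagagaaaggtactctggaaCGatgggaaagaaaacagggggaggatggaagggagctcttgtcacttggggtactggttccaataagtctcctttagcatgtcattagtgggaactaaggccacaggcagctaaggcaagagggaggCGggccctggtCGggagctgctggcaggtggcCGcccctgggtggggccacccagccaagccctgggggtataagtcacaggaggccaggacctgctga
Foxr2: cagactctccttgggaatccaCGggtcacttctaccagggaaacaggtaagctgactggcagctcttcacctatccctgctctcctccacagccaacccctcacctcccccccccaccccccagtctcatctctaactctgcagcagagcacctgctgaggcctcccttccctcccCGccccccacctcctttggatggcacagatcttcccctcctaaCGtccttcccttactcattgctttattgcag

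These stretches held 21 CpG in Foxd3, 31 in Foxo3 and 34 in Foxj3, against 6 in Foxp3, 4 in Foxi1 and 3 in Foxr2. The window levels, averaged over the 8 columns, were 1.49 for Foxd3, 1.99 for Foxo3 and 1.79 for Foxj3, and 1.24 for Foxp3, 1.06 for Foxi1 and 1.05 for Foxr2.

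Over the 25 members with a promoter of 300 bases (250 before and 50 after the TSS), the median CpG count was 25, against 13 over the 11903 protein-coding promoters matched in the same way. Their median GC content was 65.3%, against 56.0%. An observed-to-expected CpG ratio above 0.6 was found in 18 of 25 forkhead promoters (72%), against 47.5% of coding promoters. When coding promoters were put into bins of 5 CpG each, 21 of the 25 forkhead windows lay below the median level of their bin and 4 above it, a comparison that was chosen after seeing the data and has no test. The Spearman correlation between CpG count and level was 0.41 over the 25 forkhead promoters and 0.60 over 11324 coding promoters. Apart from the printed Foxo3 and Foxj3, the forkhead promoters with at least 31 CpG had lower levels. They were Foxk2 (59 CpG, level 1.34), Foxj2 (37, 1.39), Foxp4 (33, 1.24), Foxc1 (32, 1.23), Foxi3 (31, 1.27) and Foxo1 (31, 1.27). These are descriptions across genes that share the same columns and depth.

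**Figure D1:**
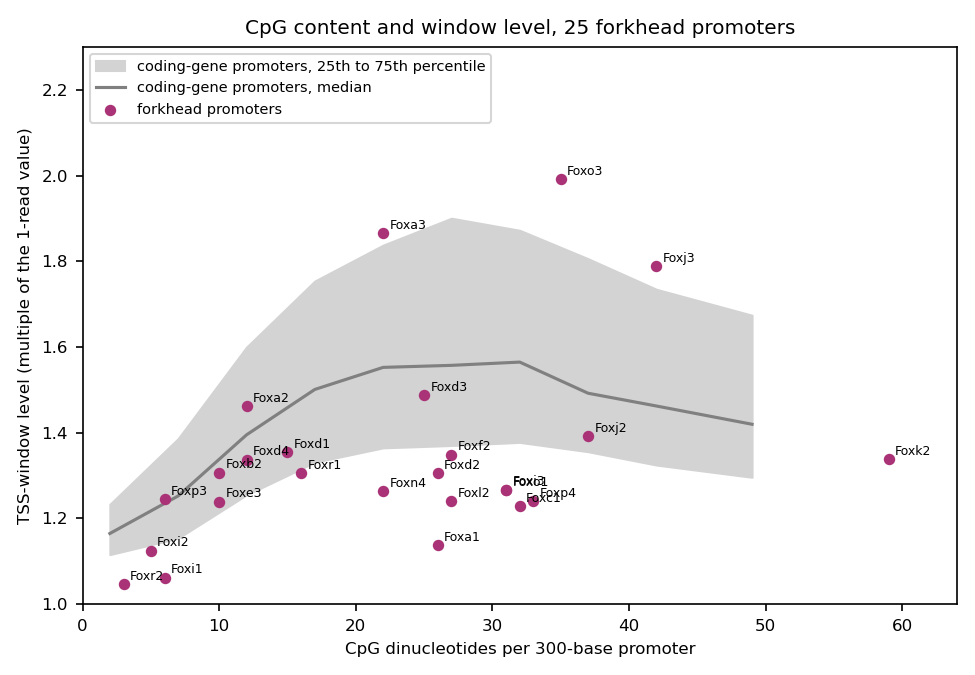
CpG dinucleotides per 300-base promoter (x axis) against the TSS-window level, in multiples of the 1-read value (mean of 8 columns, y axis), for 25 forkhead promoters. The grey line and band give the median and the 25th to 75th percentile of coding-gene promoters in bins of CpG count; Foxo3, Foxj3 and Foxa3 lie above the band, and 21 of the 25 points lie below the median of their bin.

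Short motifs were counted on both strands of the same 300 bases. The forkhead core TGTTTAC was present in 1 of the 25 forkhead promoters, that of Foxa1, which is 4%, against 3.01% of coding promoters. The Foxa1 TSS used (57546111, minus strand) lies inside the gene span, which reaches to 57548029. The looser form TGTTTNC, which includes every match of the first, was present in 5 (20%, against 18.3%). The GC box GGGCGG was present in 19 (76%, against 45.2%), CCAAT in 13 (52%, against 39.3%) and TATAAA in 2 (8%, against 15.1%). GGGCGG holds a CpG, so its count and the CpG count are not separate measures.

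Across the family, TSS windows were close to the average coding gene and clustered near the low end of the scale. The median level was 1.31 over the 44 forkhead windows and 1.35 over the coding windows with a read in all 8 columns (18351 of 19082). The coding medians by column and the percentiles of level below rest on the same windows. In single columns the forkhead median ran from 1.20 in 4HT G1, the shallowest column, to 1.41 in EtOH G2, the deepest, and the coding median from 1.25 to 1.45 in the same 2 columns. The ratio of the medians was 0.966, with an SD of 0.039 over the 8 columns. Above the coding median lay 16 of the 44 members, with 6 above the 75th percentile of coding windows and 7 below the 25th. Every forkhead window had a read in all 8 columns, as did 18351 of the 19082 coding windows, but 11 forkhead windows stood at the 1-read value in at least 1 column.

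Foxo6 stood apart from the rest of the family with a mean level of 3.08, at the 98.7th percentile of coding windows. Foxo6 encodes a FoxO protein best known from brain, and its window lies at chr4:120285000-120289999, with the TSS at the upper end of the gene span. In EtOH the levels were 3.11 in G1, 2.76 in ES, 4.43 in LS and 3.13 in G2. The 4HT columns gave 2.40, 2.13, 3.07 and 3.64 in the same order. All 8 columns of Foxo6 were at or above 2.13, and EtOH LS was the highest of them. The highest value of any other forkhead window was 2.78, for Foxo3 in EtOH G2.

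Foxo3, whose product is the FoxO protein linked to quiescence and stress resistance, came next at 1.99 (chr10:42274406-42279405). Its levels were 1.68, 1.95, 1.78 and 2.78 in EtOH, and 1.51, 1.95, 1.94 and 2.34 in 4HT. On this scale, which moves with depth, the G2 column was the highest and the G1 column the lowest within either treatment. In the centred log2 values used for the tests below, LS (-1.79) was below G1 (-1.76) in 4HT. The remaining FoxO genes were below the family median of 1.31, Foxo1 at 1.27 and Foxo4 at 1.23.

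Foxh1 stood at 1.97 (chr15:76668966-76673965), with 1.87, 2.11, 1.86 and 2.24 in EtOH and 1.57, 2.11, 1.89 and 2.11 in 4HT. This window is shared with Ppp1r16a, whose TSS lies 29 bp away and runs in the opposite direction, so its signal cannot be assigned to either gene. Foxa3, one of the FoxA pioneer factors of endoderm and liver, stood at 1.87 (chr7:19021189-19026188). Sympk has its TSS 838 bp from that of Foxa3, inside the same window. Foxj3 (1.79, chr4:119537180-119542179) and Foxn2 (1.75, chr17:88438062-88443061) were the last above the 75th percentile. Foxn2 ranged from 1.14 in 4HT G1 to 2.08 in EtOH LS. From Foxo3 to Foxn2, neighbours in this order differed by less than the SD of either window over the 8 columns (0.21 to 0.40), so their order is not resolved.

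Foxd3 held the eighth place with a mean level of 1.49, at the 65.8th percentile of coding windows. Its window (chr4:99653650-99658649) had levels of 1.53, 1.63, 1.27 and 1.23 in EtOH, and of 1.65, 1.54, 1.56 and 1.495 in 4HT. The 4HT and EtOH ranges overlap, and the lowest values are EtOH LS and EtOH G2. As a check of the labels these values say nothing, because accessibility at a gene is not its expression and the removed part is not given.

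Foxf1, a gene of lung and gut mesenchyme, was seventh at 1.59, with columns from 1.32 in 4HT G2 to 2.21 in EtOH G2. Below Foxd3 the windows followed without a gap, Foxc2 (lymphatic vessels) at 1.46, Foxa2 (endoderm and floor plate) at 1.46, Foxl1 (gut mesenchyme) at 1.43, Foxj2 at 1.39 and Foxm1 at 1.37. Rhno1 has its TSS 83 bp from that of Foxm1, in the opposite direction, and shares its window. At the bottom were Foxa1 at 1.14, Foxp1 at 1.13, Foxi2 at 1.12, Foxi1 at 1.06 and Foxr2 at 1.05. Foxa1 is a pioneer factor of endoderm and glands, Foxp1 acts in lymphocytes, heart and stem cells, and Foxi1 in the inner ear and kidney. Foxi1 and Foxr2 stood at the 1-read value in 5 of 8 columns, and neither passed 1.31 in any.

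**Figure D2:**
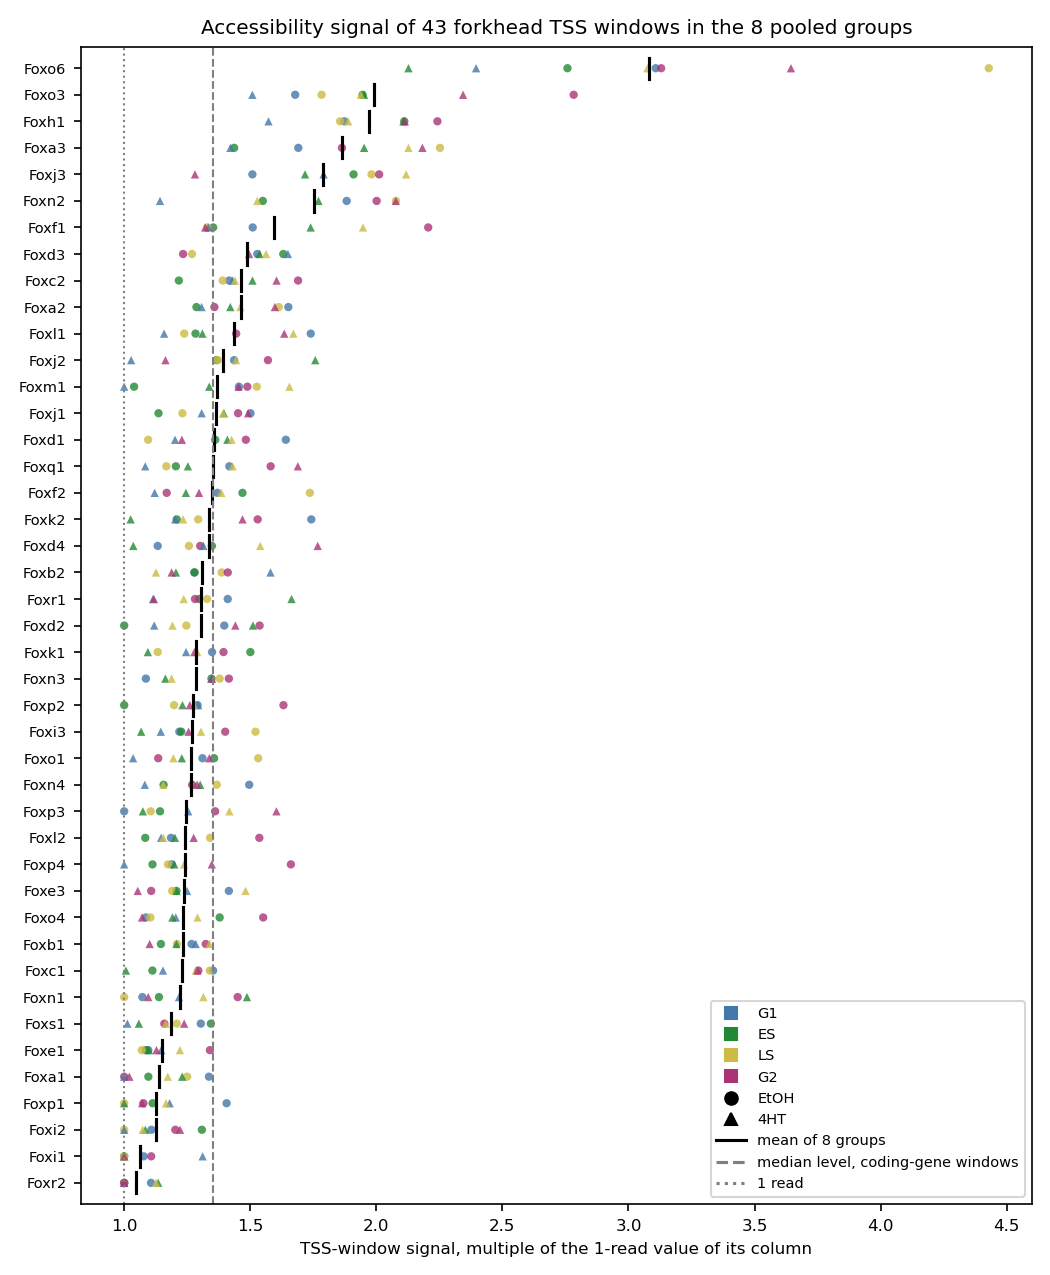
TSS-window level of 43 of the 44 forkhead genes, as a multiple of the 1-read value, in the 8 pooled columns (points) with the mean over columns. Foxo6 (mean 3.08) stands above the rest, while Foxi1 and Foxr2 lie at the 1-read value in 5 of 8 columns.

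Grouped by the setting each gene is known from, the 2 genes of the early embryo (Foxd3, Foxh1) had a median level of 1.73 and the 4 FoxO genes 1.63. The first median rests on Foxd3 at 1.49 and on Foxh1 at 1.97, whose window is shared with Ppp1r16a. The FoxO genes were spread, at 3.08, 1.99, 1.27 and 1.23. The 7 endoderm and gut genes had a median of 1.43, and the 7 genes of the cell cycle and of broad expression 1.37. Medians of 1.31 for 5 genes of mesenchyme, vessel and kidney, 1.26 for 9 neural and sensory genes, 1.24 for 4 FoxP genes and 1.23 for 6 genes of gland, epithelium, gonad and cilia were at or below the family median. For comparison, genes around forkhead proteins had medians of 1.73 (15 FOXD3 partners and co-regulators), 1.76 (22 genes of the PI3 kinase, Akt and FoxO circuit), 1.73 (25 of the FOXM1 circuit) and 1.45 (20 of the FOXH1 and Nodal circuit). The FOXM1 list counts Cdh1 (1.74) beside Fzr1, although the mouse symbol Cdh1 is that of E-cadherin, an adhesion gene. Both sets of groups were drawn up with earlier results of these data known, and no test was made between them.

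Although their levels were modest, forkhead windows more often held accessible regions than coding windows in general, and more sequence was covered by them. At least 1 region lay within 41 of the 44 windows (93.2%, against 71.1% of coding windows), and at least 2 within 25 (56.8%, against 27.5%). The median length covered by regions was 1088.5 bp, against 702 bp, and 27 windows had over 1000 bp covered (61.4%, against 29.3%). The strongest region of a forkhead window was weaker, however, with a median level of 1.36 against 1.78 when a column without a read counts as 0. These shares describe the deposited regions and were not tested. They are not particular to the family. In the FOXH1 and Nodal list 95% of windows held a region, with a median of 1287.5 bp covered. The PI3 kinase, Akt and FoxO list had 100% and 1123.5 bp. For the FOXD3 partners the values were 93.3% and 850 bp, and for the FOXM1 list 100% and 905 bp. The 3 windows without a region were those of Foxr1, Foxp3, a gene of regulatory T cells, and Foxn1, a gene of thymic epithelium.

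Of the 83 regions, 43 had a read in all 8 columns. They were 112 to 1568 bp wide, with a median of 419 bp, and the widest was that of Foxn2. A region covered the TSS in 31 windows (70.5%, against 59.5% of coding windows), 17 regions lay wholly upstream and 35 wholly downstream. The 31 regions over a TSS had a median width of 680 bp and a median level of 1.35, the others 299 bp and 1.15.

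In 10 windows regions were present but none covered the annotated TSS, among them Foxa2, Foxa3, Foxb2, Foxd3, Foxd4, Foxe3, Foxl1, Foxp1 and Foxs1. The TSS was covered in 31 of the 41 forkhead windows with a region, and in 11350 of the 13576 coding windows with one. Among windows with a region, the family thus had the lower share with a covered TSS, which was not tested. In Foxb2 the region ran from 410 to 1461 bp downstream of the TSS at a level of 1.35, in Foxd4 from 258 to 1501 bp at 1.34 and in Foxe3, a lens gene, from 158 to 1272 bp at 1.28. In Foxa2 it began 9 bp and ended 1164 bp downstream, at 1.42. These 4 regions thus lay inside the transcribed span next to the TSS and were each over 1000 bp wide.

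Foxd3 had 3 regions. One ran from -312 to -170 bp of the TSS, within the printed stretch in part, at a level of 1.02 and with no read in 4HT G2. The others lay in the gene, from 978 to 1264 bp (1.45) and from 1332 to 1764 bp (1.51). In the last, the levels were 1.29, 1.16, 1 and 1.41 in EtOH and 2.05, 1.89, 1.94 and 1.35 in 4HT. The 4HT columns of G1, ES and LS were above all EtOH columns, the G2 column was not, and the region was below the level minimum of 2 for testing.

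The strongest region of the family was that of Foxo6, from -1002 to 137 bp, at a mean level of 5.67, with 5.88, 4.97, 7.11 and 6.42 in EtOH and 5.38, 3.16, 5.98 and 6.45 in 4HT. All columns but 4HT ES lay near or above 5. The region shared by Foxh1 and Ppp1r16a, from -231 to 228 bp of the Foxh1 TSS, averaged 4.34 and was lowest in 4HT G1 (1.64), the shallowest column, and highest in 4HT ES (6.33). Foxo3 had a region over its TSS at 2.07 and a stronger one from -1644 to -877 bp at 3.35. Foxa3 had its strongest region from -969 to -411 bp, at 3.07. That region holds the TSS of Sympk, so its signal cannot be assigned to Foxa3.

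**Figure D3:**
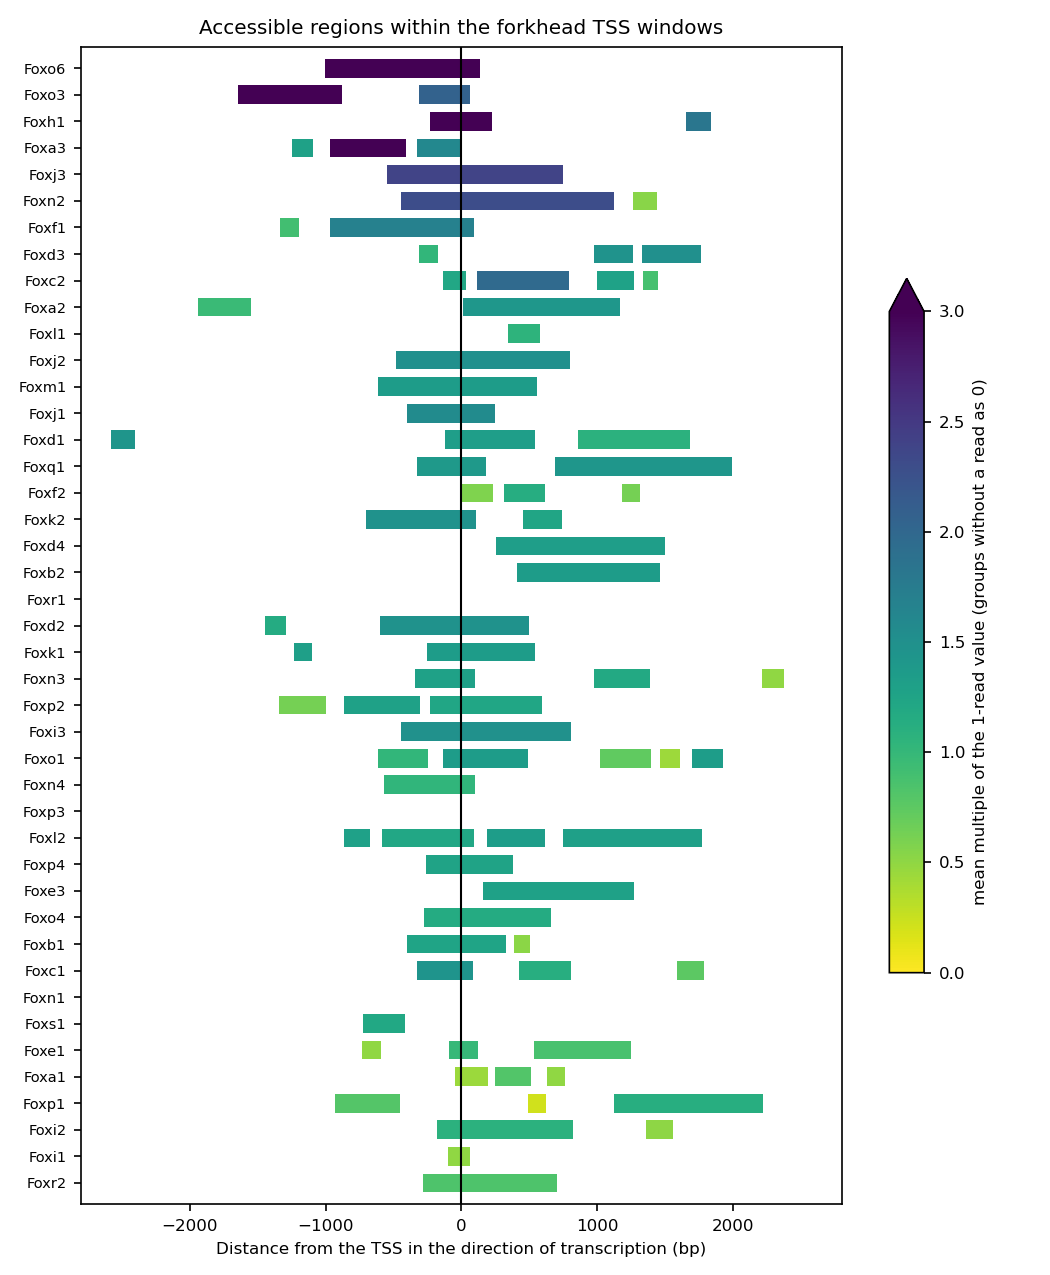
Accessible regions within 43 of the 44 forkhead windows by distance from the TSS in bp (x axis), 1 row per gene, with the level of each region as a multiple of the 1-read value. Regions lie over the TSS in 31 windows, in others such as Foxd4 and Foxe3 beside it only, and Foxr1, Foxp3 and Foxn1 have none.

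Some members are neighbours in the genome. Foxf1, Foxc2 and Foxl1 lie on chromosome 8 with 31785 bp and 11514 bp between their start sites, and their levels were 1.59, 1.46 and 1.43. On chromosome 13, Foxq1, Foxf2 and Foxc1 are 67646 bp and 180830 bp apart, with levels of 1.35, 1.35 and 1.23. Foxd2 and Foxe3 on chromosome 4 are 17169 bp apart, at 1.31 and 1.24.

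The first comparison asked whether forkhead windows opened or closed when FOXD3 was depleted. None of the members tested passed the threshold, and the differences were small. Of the 44 windows, 23 had a mean level of at least 1.3 and were tested, a share of 52.3% against 55.2% of coding windows, and 21 were too weak. The model (limma, centred log2(signal + 0.1), terms for treatment and fraction, Benjamini-Hochberg adjusted over 15323 windows) called 0 of the 23 at an adjusted p of 0.05, where the share called over all windows was 0.0131%. At an unadjusted p under 0.05 there were 0 of 23, against 5.28% of all windows, and the smallest adjusted p of a member was 0.969. The median log2 difference, 4HT minus EtOH, was -0.013 over the members and 0.00059 over all windows, and 10 of the 23 were above 0. The 95% intervals of the 23 differences reached from -0.39 (Foxo6) to 0.28 (Foxa3) and all included 0. These p-values measure the spread between pooled columns of the 4 fractions and not between cultures.

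Foxd3 had the largest positive difference of the members, 0.10 (SE 0.08, adjusted p = 0.970), with 0.19 in G1, -0.11 in ES, 0.08 in LS and 0.25 in G2. Foxo6 had the largest negative one, -0.15 (SE 0.12, adjusted p = 0.971), with -0.05 in G1, -0.32 in ES, -0.58 in LS and 0.37 in G2. Foxh1 was at -0.02 (SE 0.10). None of the 23 windows had the same sign in all 4 fractions, a count whose share over all windows was not taken. The 5 tested genes of the cell cycle and broad expression (Foxn2, Foxk2, Foxj2, Foxj3 and Foxm1) all had negative differences, from -0.12 to -0.01, and none passed the test. Both tested FoxO genes were negative too (-0.15 and -0.01), and the other groups with tested genes had both signs. The groups were drawn up with earlier results known, and no group was tested, so nothing is read from these signs. Foxm1 was at -0.01, with the 1-read value in 4HT G1.

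**Figure D4:**
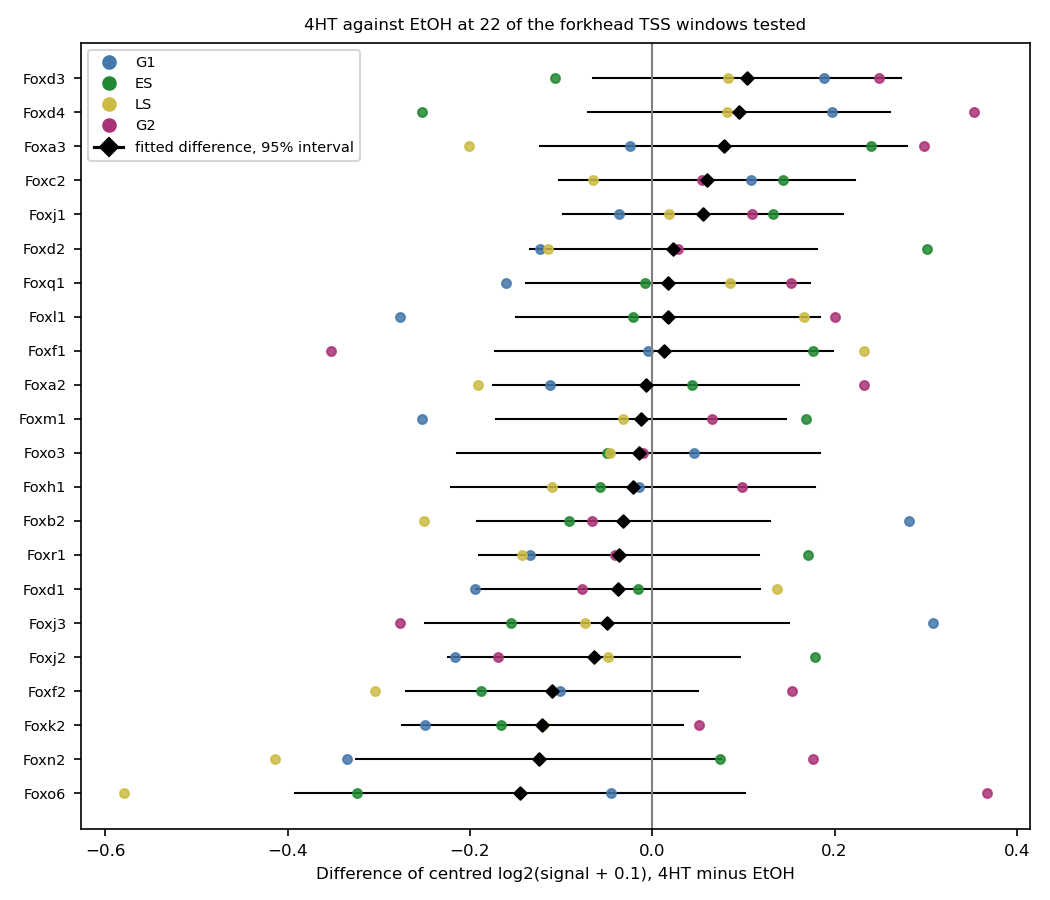
Difference of centred log2(signal + 0.1), 4HT minus EtOH, at 22 of the 23 forkhead windows tested: coloured points are the 4 fractions, diamonds and lines the fitted difference with its 95% interval. All intervals shown include 0, and every gene has points on both sides of 0.

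Within single fractions there is 1 column a group and no test. A difference beyond 0.5 on the log2 scale was seen in 0 of the 23 members in G1, 0 in ES, 1 in LS and 0 in G2, where the shares over all windows were 1.4%, 0.959%, 1.32% and 0.894%. The 1 in LS was Foxo6, whose level was 3.07 in 4HT and 4.43 in EtOH. With a correction for overlapping reads, which the average over covered bases hides, the counts became 7, 4, 4 and 5 of the 23 members, and 3428, 2594, 2593 and 2144 of all 15323 windows. In G1 the lowest values were those of Foxn2 (-0.34) and Foxl1 (-0.28) and the highest those of Foxj3 (0.31) and Foxb2 (0.28). ES had Foxo6 (-0.32) and Foxd4 (-0.25) at the low end and Foxd2 (0.30) and Foxa3 (0.24) at the high end. In LS, Foxn2 (-0.41) was next to Foxo6, and Foxf1 (0.23) and Foxl1 (0.17) were highest. G2 had Foxf1 (-0.35) and Foxj3 (-0.28) at the low end and Foxo6 (0.37) near the high end. Foxo6 was thus at the low end in ES and LS and near the high end in G2.

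Of the 83 regions, 7 passed the level minimum of 2 and were tested: those of Foxo6, Foxh1, Foxj3 and Foxn2, 2 of Foxo3 and 1 of Foxa3. For 4HT against EtOH 0 of the 7 were called, and 0% of all 11010 regions tested. The region upstream of Foxa3, which holds the Sympk TSS, had the largest difference, 0.40 (SE 0.22, adjusted p = 0.934), and the Foxo3 region over the TSS the lowest, -0.36 (SE 0.25, adjusted p = 0.943).

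Presence of reads could be compared for all 83 regions. More EtOH than 4HT columns had a read in 21 regions (25.3%, against 28.1% of all regions), and more 4HT columns in 8 (9.64%, against 24.4%). The other 54 were equal, a count given without its share over all regions. Forkhead regions had a read more often than regions in general in every column (79.5% to 90.4%, against 67.2% to 80.1%). The shares are therefore not set against regions read equally often. By column, 75, 69, 72 and 75 of the 83 regions had a read in EtOH, where the shares over all regions were 77.5%, 72.4%, 72.7% and 79.6%. In 4HT 66, 66, 73 and 67 had one, with shares over all regions of 67.2%, 75.9%, 80.1% and 73.8%. In ES the forkhead count was thus lower in 4HT than in EtOH while the share over all regions was higher, and in G1 and G2 both were lower. Depth differed between the columns, and its part in these counts was not tested. One region, of 134 bp in Foxp1, had a read in EtOH alone and in only 1 column, and 0 regions had reads in 4HT alone.

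The second set of comparisons asked how the windows differ between the sorted fractions, with G1 as the reference and the 2 treatments as repeats. The limma fit called 0 of the 23 members in ES, LS or G2, where the shares called over all windows were 0.0196%, 0.0718% and 0.0457%. At an unadjusted p under 0.05 there were 1, 0 and 1 members of 23, against 6.78%, 6.9% and 5.64% of all windows. The same sign in both treatments was seen in 8, 12 and 10 of the 23 windows. The share over all windows was not counted, so these numbers show nothing particular to the family. The median differences from G1 were -0.04 in ES, -0.007 in LS and 0.04 in G2.

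Foxo3 had the largest difference of any member between fractions. Its window was higher in G2 than in G1 by 0.33 on the log2 scale (SE 0.14, unadjusted p = 0.0233, adjusted p = 0.830), which did not pass the threshold, with 0.36 in EtOH and 0.30 in 4HT. The upstream Foxo3 region lies within this window, and its levels were 2.34, 3.78, 3.16 and 5.18 in EtOH and 1.67, 2.71, 3.25 and 4.71 in 4HT. By these levels, which move with depth, G1 was its lowest and G2 its highest column in either treatment. In the centred values, ES (-0.82) was above G2 (-0.87) in EtOH. The limma difference between G2 and G1 was 0.74 (SE 0.28, unadjusted p = 0.0169, adjusted p = 0.754). It was also short of the threshold, where 0.0182% of all regions were called. The Foxo3 region over the TSS did not share this order of levels, with a difference of 0.04 between G2 and G1.

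Foxd3 was lower in G2 than in G1 by a log2 difference of -0.21 (SE 0.12, adjusted p = 0.909), with -0.24 in EtOH and -0.18 in 4HT, and lower in LS by -0.17 (SE 0.12, adjusted p = 0.816), with -0.12 and -0.23. For ES against G1 it was at -0.04, with opposite signs in the treatments. None of these values passed the test. Foxq1 (0.19) and Foxd4 (0.13) had positive values for G2 against G1 with the same sign in both treatments, and Foxd1 (-0.09) and Foxr1 (-0.09) negative ones.

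For ES against G1, Foxk2, which together with its paralog Foxk1 represses autophagy genes, had the lowest value, -0.24 (SE 0.11, unadjusted p = 0.0300, adjusted p = 0.690), with -0.28 in EtOH and -0.20 in 4HT. Its levels were 1.74, 1.21, 1.29 and 1.53 in EtOH and 1.20, 1.03, 1.23 and 1.47 in 4HT, so that EtOH G1 was the highest column while 4HT G1 was not high. Foxj1, the regulator of motile cilia, was at -0.12. On the positive side Foxh1 was at 0.18, Foxo3 at 0.17 and Foxf2 at 0.06. The region shared by Foxh1 and Ppp1r16a had a difference of 0.71 (SE 0.29, unadjusted p = 0.0254, adjusted p = 0.643), but the 2 treatments gave 0.17 and 1.26, the latter against the low 4HT G1 column. Regions called over all 11010 were 0% for ES and 0% for LS, and 0 of the 7 forkhead regions were called in ES, LS or G2.

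For LS against G1, Foxa3 had a difference of 0.22 (SE 0.14, adjusted p = 0.797) and Foxm1 one of 0.21 (SE 0.11, adjusted p = 0.744). Foxm1 had levels of 1.46, 1.04, 1.53 and 1.49 in EtOH and of 1, 1.34, 1.66 and 1.45 in 4HT, so that LS was the highest fraction in either treatment. Its G2 value against G1 was 0.12, with opposite signs in the treatments (-0.04 and 0.28). Foxf2 was at 0.17 for LS against G1 and Foxk2 at -0.15, each with 1 sign in both treatments. Foxh1 was at -0.04 for LS and 0.10 for G2 against G1, and none of these values passed the test.

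**Figure D5:**
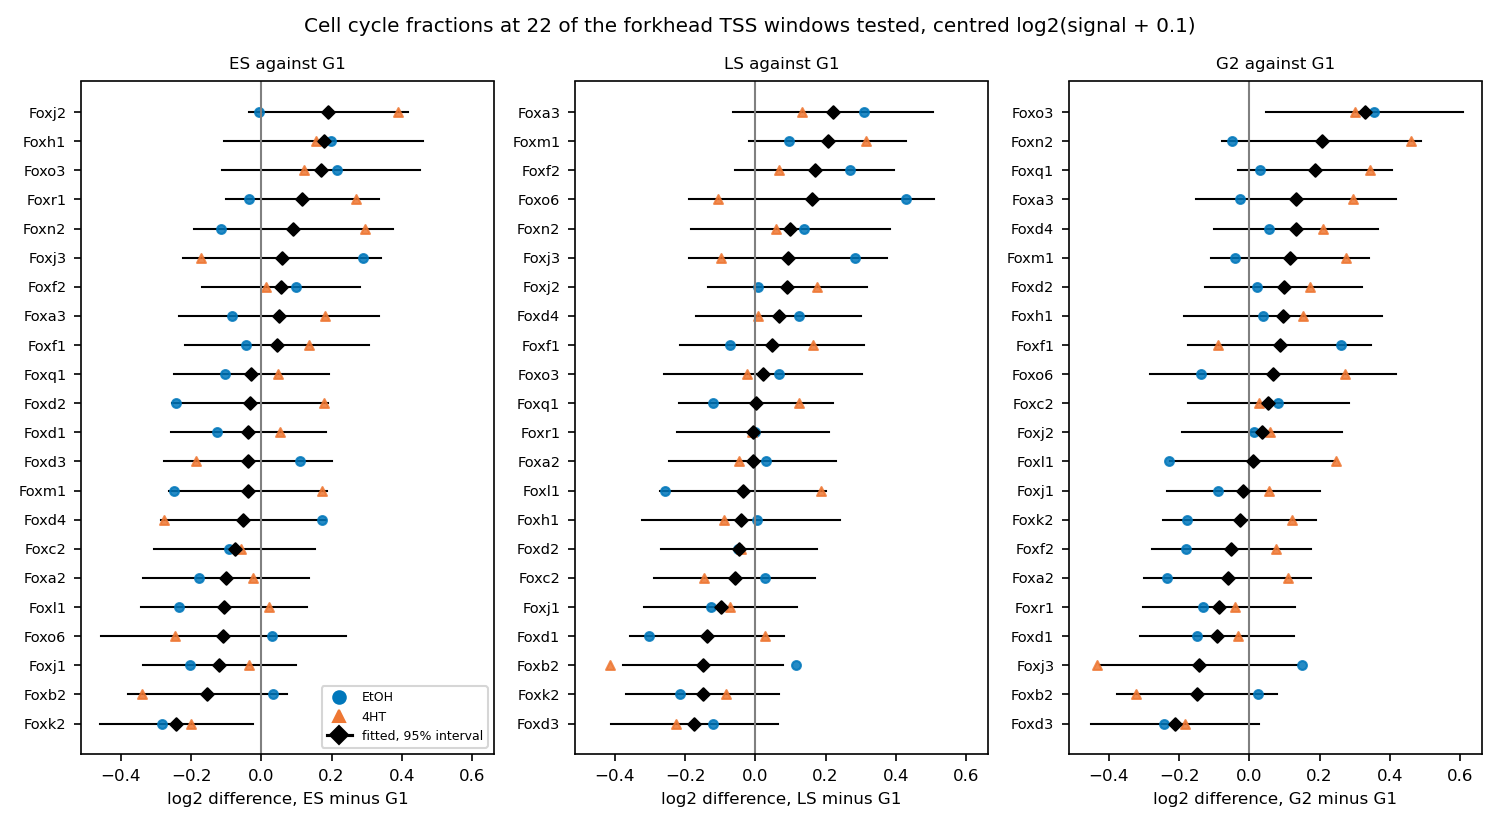
Difference of centred log2(signal + 0.1) of each fraction from G1 at 22 of the 23 forkhead windows tested, with the fitted difference and the value in either treatment. Foxo3 in G2 (0.33) and Foxk2 in ES (-0.24) lie farthest from 0, and no window passed the adjusted threshold.

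Genes that work with forkhead proteins were also read from the same fits. For 4HT against EtOH, 0 of 14 FOXD3 partners and co-regulators tested were called, 0 of 20 genes of the PI3 kinase, Akt and FoxO circuit, 0 of 23 of the FOXM1 circuit and 0 of 15 of the FOXH1 and Nodal circuit. Their median differences lay between -0.0024 and 0.0067, with Cdh1 again counted in the FOXM1 list. The largest single values were 0.23 for Smad7, an inhibitor of Smad signalling (SE 0.11, adjusted p = 0.942), and -0.22 for Ezh2, the methyltransferase of Polycomb complex PRC2 (SE 0.10, adjusted p = 0.942). Among genes that FoxO proteins regulate, Cdkn1b, a cyclin-dependent kinase inhibitor, was at -0.17 (SE 0.09). Among FOXM1 targets, Cenpa, the centromeric histone, was at 0.18 (SE 0.09).

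Between fractions, 0 members of these 4 lists were called in any comparison. Tle1, a Groucho-type co-repressor, had the largest difference, -0.65 for ES against G1 (SE 0.15, adjusted p = 0.114), and was also negative in LS and G2 (-0.36 and -0.36). Pdpk1, the kinase that activates Akt, was at 0.56 for ES against G1 (SE 0.15, adjusted p = 0.302). The marker lists gave 0 calls as well in any of the 4 comparisons, over 12 naive embryonic stem cell, 3 primitive endoderm and 4 fibroblast markers tested.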

How the data were processed

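ATAC-seq was done on 16 libraries of 8 groups. The authors deposited 2 tables, of accessible regions and of TSS windows, which hold a coverage signal per interval in 8 columns. Column names, per the file headers, carry treatment and fraction but no replicate number, so each was taken as the pool of 2 libraries; 0 columns were left unused. The submitters' processing notes name mm10 as the build, and featureCounts and DESeq2 as tools without stating their use or version. How reads were aligned and how coverage was made is not given in the sources used here.

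The smallest value of a column was taken as 1 read. Intervals read in all columns were kept at a mean level of at least 1.3 for windows (15323) and 2 for regions (11010). They were transformed as log2(signal + 0.1), which understates folds of low intervals, and centred by cyclic loess. limma 3.58.1 (R 4.3.3) fitted terms for treatment and fraction with an intensity trend and robust moderation, leaving 3 residual degrees of freedom. Calls were made at a Benjamini-Hochberg adjusted p of 0.05 over all intervals tested. The filter leaves out intervals without a read in any column. Every test is two-sided. The interaction of treatment and fraction leaves no residual degrees of freedom and was not tested. The fit was tested on simulated data, where changes that moved the mean of an interval were in most comparisons recovered less often than changes that kept it. Tables were handled with Python 3.11.15.

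Gene names, start sites and promoters came from RefSeq tables of GRCm38.p6. The strand was read from the promoter table for 28 members and from the end of the gene near the window for 16. Where several start sites were on record for a gene, the one nearest a window midpoint was used. For Foxa1, Foxn4 and Foxr2 this start lies inside the gene span. A promoter sequence at the window's TSS was matched for 25.

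The members, the role groups, the gene lists and the tests were chosen with earlier results of these data known. Named were Foxd3 and Foxh1, the 8 highest and 5 lowest windows, the 3 largest differences of each sign with the same sign in every repeat, and the 2 largest of each sign within a fraction. Of other lists the rule takes the 2 largest differences, of which some are printed. The values of 1 member are not reported here by name, though counts include it. Other names were chosen after their values were seen. Alternatives were other pseudocounts, no level filter, a higher one, other centring, a Poisson correction for overlapping reads, and leaving out a fraction.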

Additional observations from a re-analysis of the deposited data

How the results depend on the processing

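The count of forkhead windows or regions called was 0 in each of the 8 comparisons under every alternative run (11 settings for treatment, 9 for each fraction contrast). With no level filter all 44 windows were tested, and the smallest adjusted p of a member in limma was 0.956 for 4HT, 0.788 for ES, 0.739 for LS and 0.927 for G2. A Poisson correction for overlapping reads, which covered-base averages hide, widened the differences, to between -0.63 and 0.52 for ES against G1, with a smallest adjusted p of 0.547. The number of members past 0.5 within a fraction was 1, became 5 with the signal as deposited and 0 with a pseudocount of 0.5, which compresses differences by construction. Under 2 alternatives chosen after seeing the data it was 20 with the correction for overlapping reads, which widens differences by construction, and 5 with a pseudocount of 0.02, counting each of the 23 members once per fraction. Over all 15323 windows the counts as deposited were 1344 in G1, 263 in ES, 635 in LS and 240 in G2. In the same order they were 5, 1, 0 and 3 with a pseudocount of 0.5, and 887, 729, 858 and 756 with 0.02. Those with the correction are given above. The counts of all windows thus moved with the setting as well, and the member counts show nothing particular to the family. Without centring, the median of all windows was shifted by 0.25 in G1, -0.09 in ES, -0.17 in LS and 0.10 in G2. Of the values of named windows under an alternative, 192 kept their sign and side of the threshold, and 3 small ones changed sign: Foxh1 for 4HT without the LS fraction (0.00862), Foxf2 for ES against G1 as deposited (-0.0038) and Foxh1 for LS against G1 with median centring (0.0165); the cause was not tested. Over all windows, calls ranged from 0 to 4 for 4HT, 0 to 4 for ES, 0 to 11 for LS and 4 to 8 for G2. No paired analysis was possible because each column pools the 2 libraries of its group, and for the same reason no library could be left out. With 6.78 to 11.2 M reads per column, 21 of 44 windows were too weak to test in the fit reported, and a loss at a window near the 1-read value was not detectable.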
